A study of Homo sapiens with 4 samples.

Results

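The 9 apolipoprotein genes APOA1, APOC3, APOA4, APOA5, APOE, APOC1, APOC2, APOC4 and APOB were taken by name, out of 19821 protein-coding genes on chromosomes 1 to 22 and X, and the CTCF peaks in each gene and 100 kb on each side of it were described. The chromosome 11 genes lie together, as do the chromosome 19 genes, so the windows formed 3 regions, and these held 24 of the 42462 peaks in the list. The study mapped CTCF by ChIP-seq (sequencing of immunoprecipitated chromatin) in the established melanoma cell line MDA-MB-435, grown in DMEM with serum and antibiotics. The series holds 2 mitotic samples, in which cells were blocked with thymidine (2 mM, 24 h), released for 3 h and arrested with nocodazole (100 ng/mL, 16 h) before shake-off, with a custom antibody against CTCF phosphorylated at pT431. It also holds 2 asynchronous samples with an antibody against CTCF. The 1 peak list used here is that of asynchronous replicate 1, so mitotic and asynchronous cells were not compared and no value has a replicate check. The labels do not describe a further treatment or genotype of these cells, and a peak list holds no expression values, so the cell type was not checked against markers.

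CTCF is a zinc finger protein that binds insulators and stops cohesin as it extrudes chromatin loops, so its sites often mark loop anchors and domain edges. Apolipoproteins are the protein coats of lipoprotein particles, and most of them are made mainly in liver and intestine. The genes around APOA1 and those around APOE are tandem clusters that share enhancers within each cluster, and insulators bound by CTCF and cohesin are known from the APOA1 cluster in liver cells. Melanoma cells are not a known main source of APOA1, APOB or the APOC proteins.

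Of 19210460 tags in this library, 11.66% fell in peaks. Tags per peak are given as normalised tags, scaled by the authors' peak caller to a library of 10000000 tags, with exact Poisson 95% intervals of the tags counted. These intervals cover counting error only. The median of all 42462 peaks was 20 normalised tags, with an interquartile range of 12 to 34.6. Scores, folds over the surrounding 10 kb and focus ratios (the part of a peak's tags placed as a single binding site would place them) are values of the authors' caller, and are used to describe and rank peaks of this list only. The lowest score in the list was 15, so a stretch without a called peak can still hold weaker binding.

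The nearest peak to an end of an apolipoprotein gene lay between 431 bp and 12.9 kb away. An annotated end had a peak centre within 1 kb for 1 of the 9 genes, APOA1, against 28.4% of all protein-coding genes (5635 of 19821, Clopper-Pearson 95% interval 27.8 to 29.1). Within 5 kb it was 7 of 9 genes, against 53.2% of all protein-coding genes. At 500 bp the count was again 1 of 9 genes, against 20.6% of all, and at 2 kb it was 3 of 9, against 37.3%. Windows of 2.5 and 10 kb gave 5 and 8 of 9 genes, against 40.9% and 67.6% of all. APOA1 was inside 1 kb at 431 bp, and APOA5 and APOB were just outside it at 1021 and 1028 bp. At the distance of APOB it was 3 of 9 genes, and 28.8% of all protein-coding genes had a nearer peak than APOB. These counts lie on both sides of the shares of all genes, and no order is read from them. APOE followed at 2015 bp, APOC2 at 2173 bp, APOC1 at 2888 bp and APOC3 at 3110 bp. APOC4 at 6.24 kb and APOA4 at 12.9 kb were the farthest. The median over the 9 genes was 2.17 kb, against 4.23 kb over all protein-coding genes (interquartile range 0.747 to 14.5 kb). The 9 genes are not independent: only 6 distinct peaks were the nearest to them, since APOA1, APOC3 and APOA4 shared 1 of these peaks and APOC2 and APOC4 another.

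**Figure D1:**
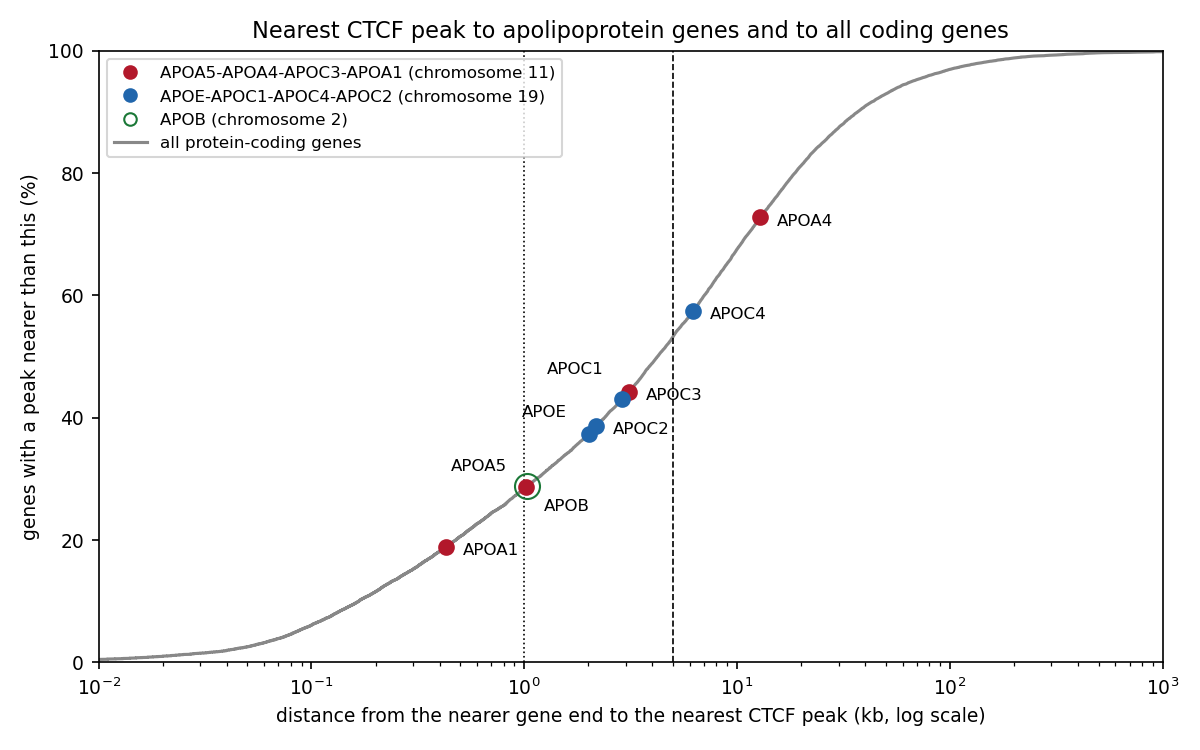
Distance from the nearer end of each gene to the nearest CTCF peak centre (kb, log scale), for the 9 apolipoprotein genes as points and for 19821 protein-coding genes as a cumulative curve (percent of genes with a nearer peak). Dotted and dashed lines mark 1 and 5 kb; APOA1 alone lies left of 1 kb, and APOC4 and APOA4 lie right of 5 kb.

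A peak centre lay inside APOA1, APOA5 and APOB, 3 of 9 genes, against 49.3% of all protein-coding genes. These genes are mostly short. APOB spans 42.6 kb and the other 8 span 1.87 to 5.02 kb, against a median of 24.5 kb for all protein-coding genes. Among the 2801 protein-coding genes of 1.5 to 6 kb, 15.8% held a peak, and 2 of the 8 short apolipoprotein genes did. At gene ends the short genes as a whole resembled the rest more closely, with 25.1% having a peak within 1 kb.

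Counted over the gene and its flanks, 8 of the 9 genes had more peaks than the median of all protein-coding genes and APOB had fewer. At least 7 peaks were found for 8 of 9 genes, against 42.8% of all protein-coding genes, and at least 5 for all 9, against 67.1%. At least 1 was found for all 9 too, against 97%. APOE, APOC1 and APOC4 had 9 peaks each, APOA5 and APOC3 had 8, APOA1, APOA4 and APOC2 had 7 and APOB had 5. The median over the 9 genes was 8, against 6 over all protein-coding genes (interquartile range 4 to 8). By chromosome the median was 7 on chromosome 19 (5 to 10), 6 on chromosome 11 (4 to 9) and 6 on chromosome 2 (4 to 8). APOC2 was at the median of its chromosome, and by count all 9 genes lay within the interquartile range of theirs. For APOE, APOC1 and APOC4, 16.8% of all protein-coding genes had more peaks, and for APOB 55.3% did. A longer gene has a longer window, and these counts are not corrected for that. Per 100 kb of window, the median over all protein-coding genes was 2.33 peaks (interquartile range 1.46 to 3.39). APOB had 2.06, and the other 8 genes had 3.44 to 4.43, above that range. Genes of 1 cluster share most of their window, so these counts repeat the same peaks.

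**Figure D2:**
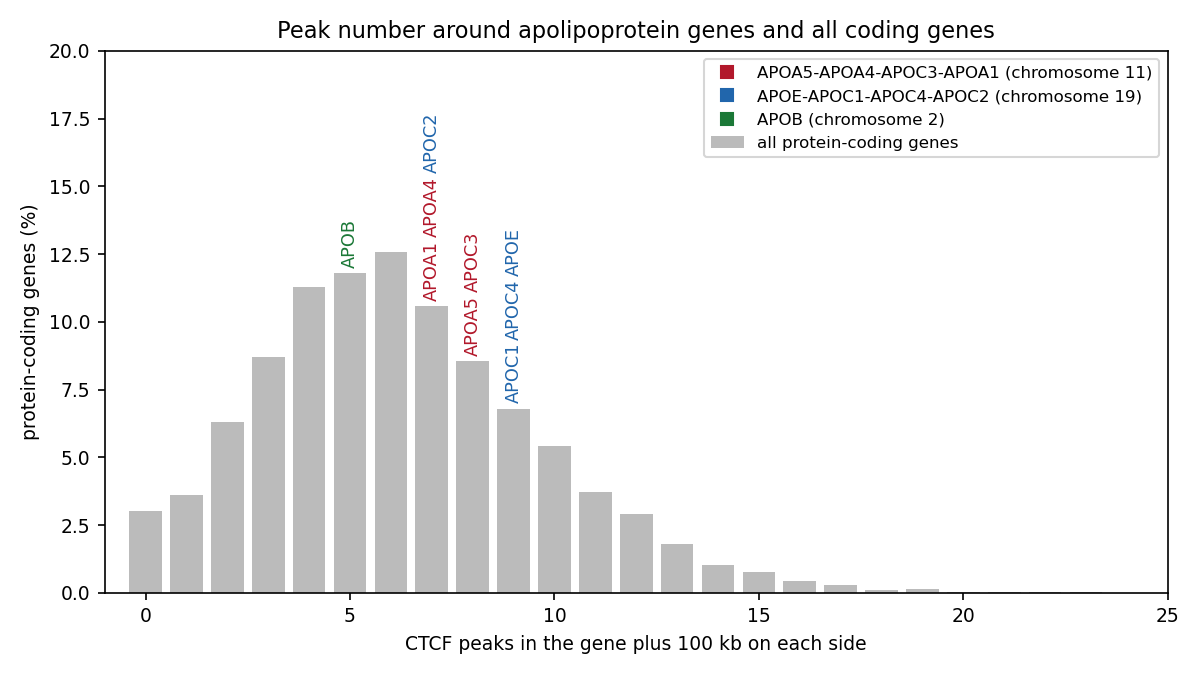
Percent of 19821 protein-coding genes (bars) by the number of CTCF peaks in the gene plus 100 kb on each side, with each apolipoprotein gene written above the bar it belongs to. APOB stands at 5 peaks and the other 8 genes at 7 to 9, against a median of 6 for all protein-coding genes (the axis ends at 25, and the highest count is 31).

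In the APOA1 cluster (chromosome 11, hg38), CTCF lay in the genes at both edges and was not called at the genes between them. APOA5 (116789367 to 116792420) encodes a protein that speeds triglyceride clearance by lipoprotein lipase. APOA4 (116820700 to 116823304) encodes an intestinal apolipoprotein of chylomicrons, and APOC3 (116829907 to 116833072) an inhibitor of lipoprotein lipase. APOA1 (116835751 to 116837622) encodes the main protein of high-density lipoprotein. The 248 kb window held 9 peaks, or 3.63 per 100 kb (1.66 to 6.88), an interval that includes the 1.68 per 100 kb of chromosome 11. The chromosome value also covers stretches far from genes, so it is not a like measure. Of the 9 peaks, 4 lay below the genes, 2 within the cluster and 3 above it, and none lay between a pair of cluster genes.

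The peak in APOA1 (116836008 to 116836356) held 53.6 normalised tags (43.8 to 65.0), and the lowest peak of the window in position, 56.3 kb below BUD13, held nearly as many at 52.8 (42.8 to 63.9). The APOA1 peak stood 19.2-fold over its surroundings, had a focus ratio of 0.891, and its score exceeded that of 89.4% of all peaks. Its centre was 431 bp inside the lower end, which is the 3' side because APOA1 is known to be transcribed towards lower coordinates. The antisense RNA gene APOA1-AS, which begins inside APOA1, also covers it. The peak in APOA5 (116791225 to 116791573) held 45.0 normalised tags (35.8 to 55.3) at a fold of 20.02 and a focus ratio of 0.823. The intervals of these 2 peaks overlap, and no order is read from their tags. The 2 peaks stood 44.8 kb apart with no called peak between, and APOA4 and APOC3 lie in that stretch. The median spacing was 29.9 kb on chromosome 11 (interquartile range 11.8 to 66.6 kb) and 35.1 kb over all chromosomes. The longest spacing of this window, 47.4 kb, lay elsewhere, in SIK3.

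A weaker peak lay 4.29 kb beyond the one in APOA1, inside APOA1-AS, with 15.1 normalised tags (10.1 to 21.7). Its interval did not overlap that of the APOA1 peak, which was 3.55 times as high. At 4.01-fold over its surroundings it only just passed the caller's minimum of 4-fold, and the neighbouring APOA1 peak lies within the 10 kb used for that fold. Farther up, SIK3, a salt-inducible kinase gene, held 24.7 normalised tags (18.0 to 32.5) at 36.6 kb and 7.81 (4.37 to 12.9) at 84.0 kb from its lower end. The second of these is at the floor of the list, where no peak had a lower score.

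Below APOA5, the peak at the shared edge of BUD13 and ZPR1 was weak. BUD13, a pre-mRNA splicing factor gene, had its start 83 bp from the peak centre. The peak (116772896 to 116773244) held 8.85 normalised tags (5.16 to 14.2) with a focus ratio of 0.673. ZPR1, a zinc finger protein gene, ended 729 bp away from the same centre. Beyond the lower end of BUD13, peaks of 21.6 (15.3 to 29.0), 36.2 (28.4 to 46.0) and 52.8 (42.8 to 63.9) normalised tags lay 5.23, 15.3 and 56.3 kb away. These 3 intervals overlap from each peak to the next, but the intervals of the nearest and the farthest do not. The nearest peaks outside the window were 148 kb below the cluster, with 44.0 normalised tags (35.3 to 54.7), and 259 kb above it inside SIK3, with 8.59 (5.16 to 14.2).

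Reference promoters were set beside these peaks to show where CTCF was and was not called relative to transcription starts. RefSeq promoters of GRCh38.p14, 250 bases before to 50 after a start, were found for 6 of the 9 genes, APOA5, APOA4, APOE, APOC1, APOC4 and APOC2. No base of these 6 genes' promoters lay in a peak. For APOA5 the listed starts were 1.02 and 0.48 kb from the peak centre, and for APOA4 the start was 12.9 kb from the nearest one. Counting starts only, 1 of these 6 genes, APOA5, had a peak within 1 kb, against 26.8% of 15812 protein-coding genes with an entry. BUD13 is shown with them because all 300 bases of its promoter lay in the weak peak described above. The 250 bases before the start are printed 5' to 3', with capitals marking the core of the CTCF consensus motif, or CCCTC, the repeat that gave CTCF its name, on either strand.
APOA5 promoter, chr11:116792421-116792670, strand -: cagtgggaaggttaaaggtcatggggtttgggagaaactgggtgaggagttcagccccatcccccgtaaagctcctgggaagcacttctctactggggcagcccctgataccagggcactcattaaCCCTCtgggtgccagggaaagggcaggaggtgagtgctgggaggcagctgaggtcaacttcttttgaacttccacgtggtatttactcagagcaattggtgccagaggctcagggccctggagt
APOA4 promoter, chr11:116823305-116823554, strand -: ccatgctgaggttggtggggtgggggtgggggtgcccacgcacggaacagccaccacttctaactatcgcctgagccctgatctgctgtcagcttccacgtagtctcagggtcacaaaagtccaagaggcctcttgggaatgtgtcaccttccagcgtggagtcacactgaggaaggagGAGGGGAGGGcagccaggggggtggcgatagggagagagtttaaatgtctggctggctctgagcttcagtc
BUD13 promoter, chr11:116772988-116773237, strand -: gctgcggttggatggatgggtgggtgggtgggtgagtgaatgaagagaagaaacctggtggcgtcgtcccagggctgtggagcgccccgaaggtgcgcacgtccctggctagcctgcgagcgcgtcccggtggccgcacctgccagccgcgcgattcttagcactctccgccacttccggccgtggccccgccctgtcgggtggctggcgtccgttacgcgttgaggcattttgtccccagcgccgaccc
The core motif had no match in these 3 stretches nor in the 300-base promoters of the 6 apolipoprotein genes. It was found in 2.41% of all 34961 promoters, in 10.7% of the 2652 with at least 150 bases in a peak and in 1.72% of the 31078 with none. The short repeat CCCTC was found in 8 of the 9 promoter entries of these 6 genes, and in 71.3% of all promoters. It overlaps some matches of the core on the other strand. The sequence under the peaks themselves was not read, since no genome was used here.

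Around APOE (chromosome 19), CTCF flanked the gene closely on both sides, and a 40.3 kb stretch over the APOC genes had no called peak. APOE (44905796 to 44909393) encodes the ligand that takes lipoprotein remnants to the LDL receptor and is known to be made by many cell types besides hepatocytes. APOC1 (44914325 to 44919346), APOC4 (44942237 to 44945496) and APOC2 (44946051 to 44949565) encode small exchangeable apolipoproteins, of which APOC2 is the cofactor of lipoprotein lipase. The 244 kb window held 10 peaks, or 4.10 per 100 kb (1.97 to 7.54), an interval that includes the 2.53 per 100 kb of chromosome 19. That value too covers stretches far from genes. Of the 10 peaks, 6 lay below the genes, 1 between APOE and APOC1, and 3 above them. None lay inside an apolipoprotein gene of this cluster.

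The peak next to APOE on the lower side (44903607 to 44903955) held 78.1 normalised tags (66.1 to 91.6), the second highest of the 24. Its centre was 2015 bp before APOE and 92 bp past the upper end of TOMM40, the gene of the mitochondrial import channel. It stood 38.05-fold over its surroundings, and its score exceeded that of 97.0% of all peaks. On the other side of APOE, 2044 bp past its upper end, a peak of 15.9 normalised tags (10.96 to 22.9) separated it from APOC1 (44911263 to 44911611). The 2 peaks are 7.66 kb apart and their intervals do not overlap, the one before APOE being 4.91 times as high. The next peak came 40.3 kb later, 2173 bp past APOC2, with 36.2 normalised tags (28.4 to 46.0). APOC1, APOC4 and APOC2 all lie within that stretch. It is longer than the chromosome 19 median spacing of 19.7 kb but within the interquartile range of 8.94 to 41.7 kb. The longest spacing of this window, 45.7 kb, lay elsewhere, below TOMM40.

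The peak with the most tags in the 3 regions lay farther below, before NECTIN2, a cell adhesion gene. It held 101.2 normalised tags (87.3 to 116) at 1374 bp before NECTIN2 and a score above that of 98.6% of all peaks. A second peak, 820 bp from it and 554 bp before NECTIN2, held 52.1 (42.4 to 63.3), and the 2 intervals do not overlap. These neighbours lie within each other's surroundings, and their folds were 23.5 and 8.5. TOMM40 held 2 weak peaks, of 8.85 (5.16 to 14.2) and 9.63 (5.55 to 14.8) normalised tags, 169 bp and 4.73 kb inside its lower end. BCAM, a laminin receptor gene, had a peak of 36.4 (28.4 to 46.0) 948 bp before it. Above the cluster, CLPTM1 held a peak of 27.8 (20.7 to 36.1) and RELB, an NF-kappaB subunit gene, 36.4 (28.4 to 46.0). Just outside the window, peaks of 42.7 (33.9 to 53.0) at CBLC and 52.3 (42.4 to 63.3) in CLASRP lay 105 kb below and 110 kb above the cluster.

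Of the genes in or reaching into the 3 windows, 14 had a promoter entry, 6 apolipoprotein genes and 8 neighbours. The SIK3 promoter itself lies outside its window. Only NECTIN2 of these 14 genes had the core motif in its promoter, beside 2.41% of all promoters. The motif is in capitals here with the CCCTC matches. No base of the NECTIN2 promoter lay in a called peak, and both NECTIN2 peaks ended before it.
NECTIN2 promoter, chr19:44846047-44846296, strand +: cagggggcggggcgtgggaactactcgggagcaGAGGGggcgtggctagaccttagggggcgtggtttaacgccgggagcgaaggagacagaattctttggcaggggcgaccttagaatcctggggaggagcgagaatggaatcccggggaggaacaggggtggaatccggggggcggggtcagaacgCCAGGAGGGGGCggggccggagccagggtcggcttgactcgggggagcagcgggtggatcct

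**Figure D3:**
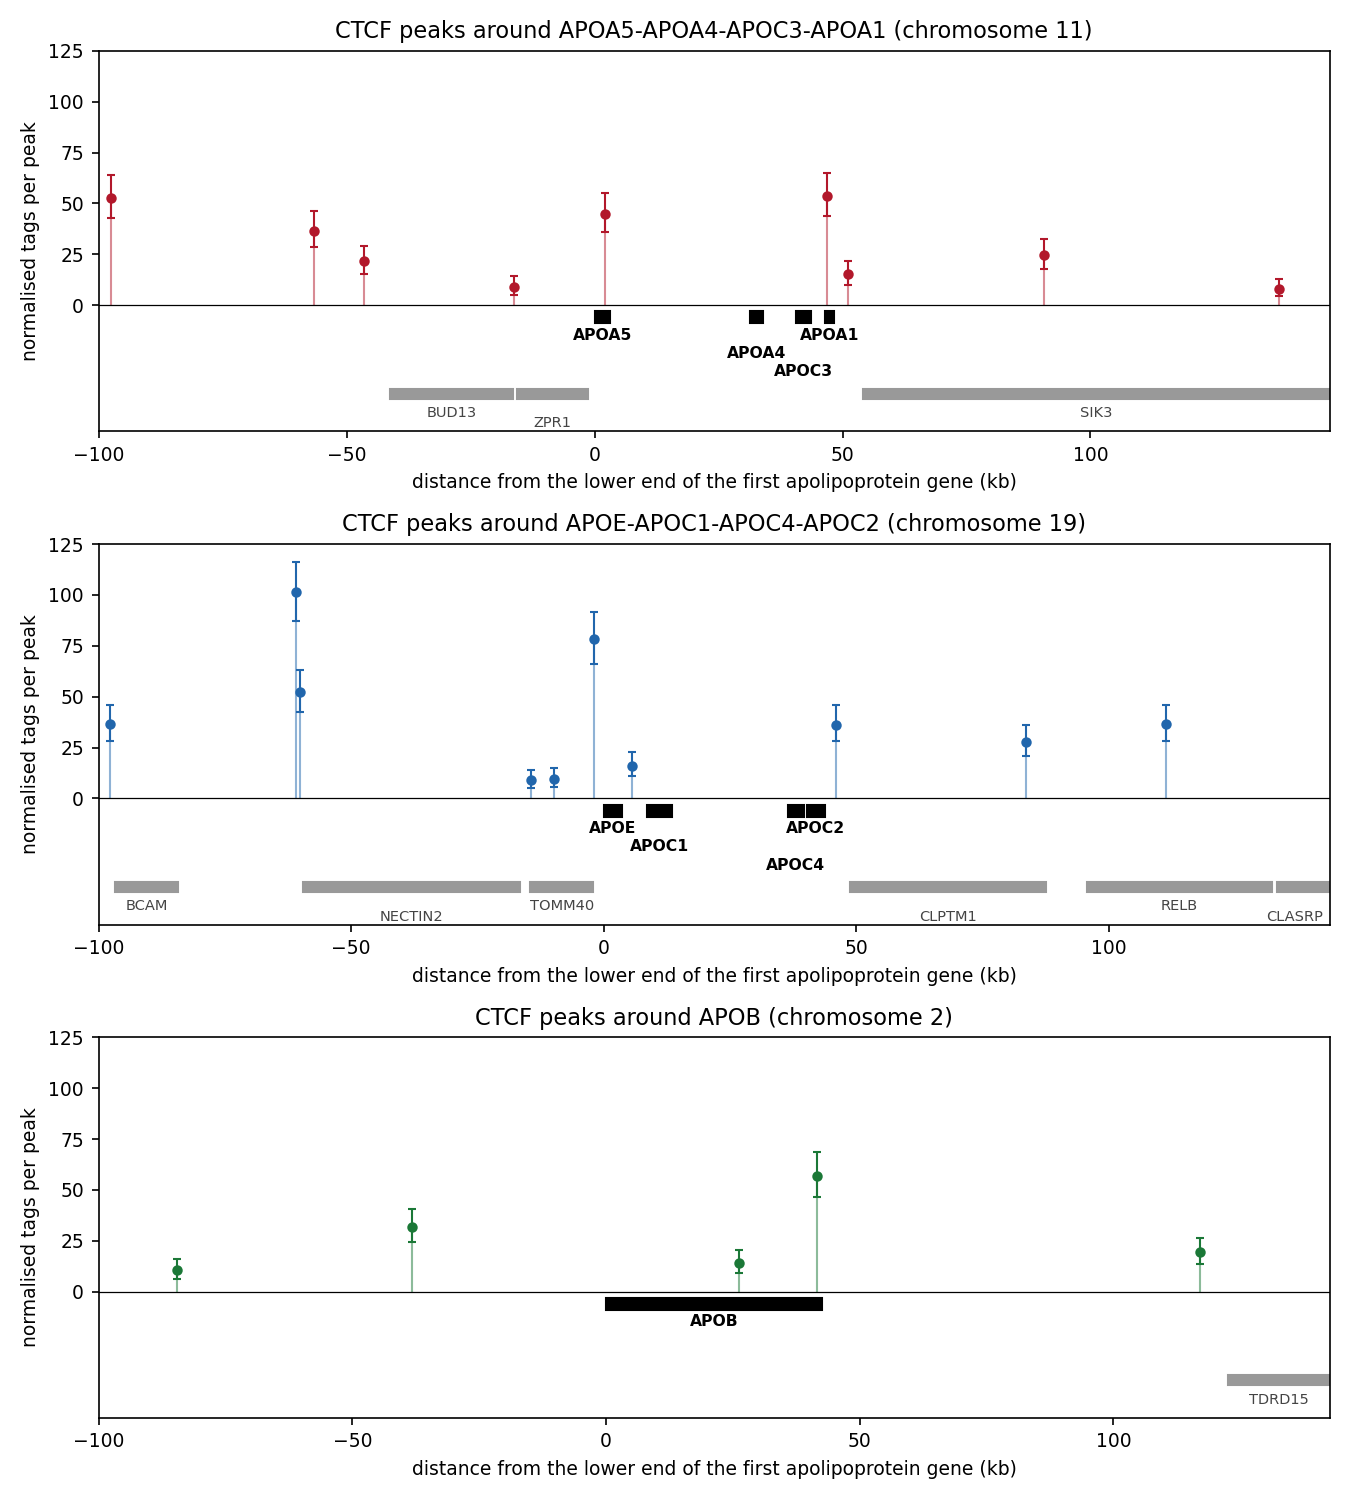
CTCF peaks in the 3 windows, as normalised tags per peak with exact Poisson 95% intervals, against distance (kb) from the lower end of the first apolipoprotein gene. Black boxes are the apolipoprotein genes and grey boxes the other protein-coding genes; peaks of 45.0 and 53.6 stand in APOA5 and APOA1, 78.1 and 15.9 on the 2 sides of APOE, and 56.7 near the upper end of APOB.

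APOB, which encodes the structural protein of low-density lipoprotein and chylomicrons, had the fewest peaks but held 1 of the strongest. The gene (chromosome 2, 21001429 to 21044073) is known to be transcribed towards lower coordinates, so its upper end is the start. The peak 1028 bp inside that end (21042871 to 21043219) held 56.7 normalised tags (46.6 to 68.4). Its focus ratio of 0.931 and its fold of 43.1 were the highest of the 24 peaks. A second peak inside the gene, 16.4 kb from the upper end, held 14.1 (9.26 to 20.4), and the first was 4.02 times as high with no overlap of the intervals.

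The flanks of APOB held 3 peaks. Peaks of 31.8 (24.3 to 40.8) and 10.4 (6.36 to 16.1) normalised tags lay 38.3 and 84.6 kb below the gene. A peak of 19.5 (13.6 to 26.5) lay on the other side, 5.44 kb before TDRD15, a Tudor domain gene. The 243 kb window held 5 peaks, or 2.06 per 100 kb (0.669 to 4.81), an interval that includes the 1.35 per 100 kb of chromosome 2. Here too the chromosome value covers stretches far from genes. The stretch between the peak near the APOB start and the next one above was 75.4 kb. The chromosome 2 median was 39.2 kb, with an interquartile range of 15.4 to 89.2 kb. Beyond the window, the next peaks were 220 kb below the gene, inside LDAH with 26.5 normalised tags (19.8 to 34.9), and 132 kb above it with 9.63 (5.55 to 14.8).

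The 24 peaks ran from 7.81 to 101.2 normalised tags with a median of 29.8, against 20 in the whole list, and 15 of 24 were above the list's median. In the score, 15 of 24 were at or above the list's median of 39, and 3 were in its highest 10%: the stronger NECTIN2 peak, the peak before APOE and the peak near the APOB start. Ordered by height, each peak's interval overlapped that of the next one down, so neighbours in the order cannot be told apart. The highest, before NECTIN2, overlapped only the peak before APOE.

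Local background, the normalised tags divided by the fold over the surroundings, was lowest around APOB, although the ranges of the 3 windows overlap. All 5 peaks of the APOB window were below the list's median of 1.47, and 4 of them below its lower quartile of 1.18, with a range of 0.884 to 1.32. In the APOE window the range was 1.12 to 6.13 and 4 of 10 peaks were above the list's upper quartile of 1.92. In the APOA1 window the range was 0.932 to 3.77 and 3 of 9 were above it. The highest values of these 2 windows, 6.13 and 3.77, belong to peaks with a neighbour 820 bp and 4.29 kb away. Such neighbours lie within the 10 kb used for the fold. These 2 neighbours, at 4.30 and 2.79, were also above the upper quartile. So were the peaks in APOA5 (2.25), before APOE (2.05) and past APOC2 (1.96). Their nearest neighbours were 18.3, 7.66 and 37.6 kb away. The 2 peaks in TOMM40, 4.56 kb apart, were below the upper quartile at 1.89 and 1.67. In the APOB window the closest peaks were 15.4 kb apart. What neighbouring peaks add to the local background was not tested. The medians of the chromosomes were 1.43 on chromosome 2, 1.74 on chromosome 19 and 1.51 on chromosome 11. No control library was named for this peak list.

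**Figure D4:**
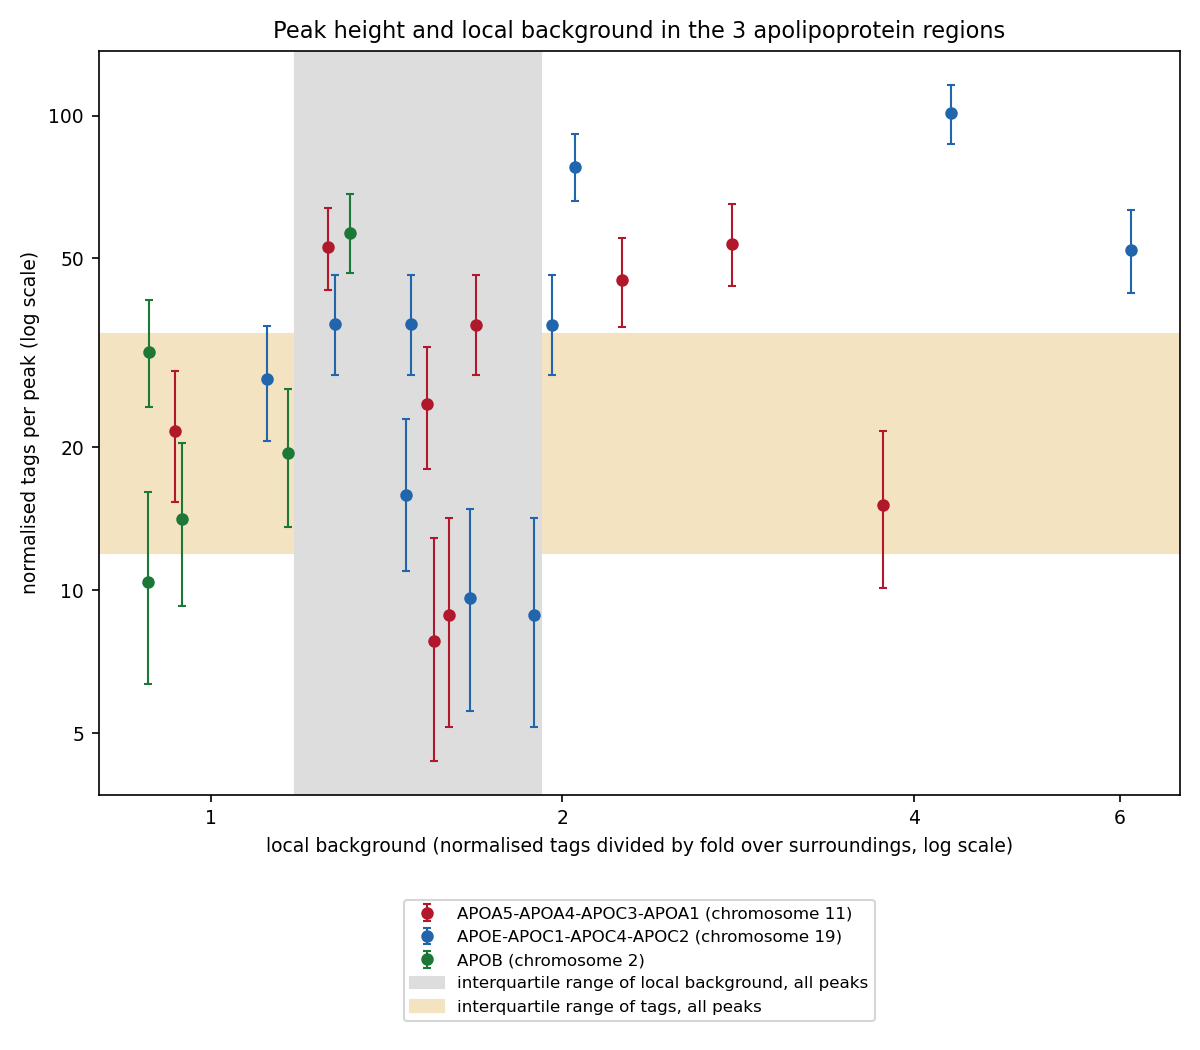
Normalised tags per peak (log scale, exact Poisson 95% intervals) against local background (normalised tags divided by fold over the surroundings, log scale) for the 24 peaks, with bands for the interquartile ranges of all 42462 peaks. The 5 peaks of the APOB window lie at 0.884 to 1.32, and the highest local background, 6.13, belongs to the weaker NECTIN2 peak.

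The other genes of the windows were counted in the same way, without a test. A peak within 1 kb of an end was found for 1 of 9 apolipoprotein genes and for 6 of 10 neighbouring protein-coding genes, BUD13, ZPR1, SIK3, BCAM, NECTIN2 and TOMM40, beside 28.4% of all protein-coding genes. BUD13 and ZPR1 share 1 peak, and that of SIK3 lies at its far end, outside the window. The counts depend on the 1 kb cut: BCAM at 948 bp was just inside it, and APOA5 and APOB at 1021 and 1028 bp just outside. Within 2.5 kb it was 5 of 9 apolipoprotein genes (40.9% of all), and within 5 kb 7 of 9 (53.2% of all). The remaining neighbours, CLPTM1, TDRD15, CLASRP and RELB, were at 2.85, 5.44, 8.22 and 12.1 kb. No difference is read from these counts. Counted over peaks, 6 of 24 (25%) lay within 1 kb of an end of a protein-coding gene, against 12.4% of all peaks. The windows were drawn around protein-coding genes, whereas the whole list also covers regions far from any. These 2 shares are therefore not alike, and no difference is read from them.

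Other genes listed as apolipoproteins or for lipoprotein metabolism were counted in the same way. Of 43 listed genes, 8 (18.6%) had a peak within 1 kb of an end and 23 (53.5%) within 5 kb, beside the 28.4% and 53.2% of all protein-coding genes given above. By listed role, 2 of 10 other apolipoprotein genes (CLU and APOO) and 0 of 7 enzyme and transfer protein genes had a peak within 1 kb. For receptor and transporter genes it was 3 of 13, and for regulators 3 of 13. APOO and APOOL are in the list as apolipoproteins, and their part in lipoprotein metabolism was not checked. The strongest was at CLU, which encodes clusterin (apolipoprotein J), with 105.2 normalised tags (91.1 to 121). LRP1, a remnant receptor gene, had 60.9 (50.4 to 73.0), and APOO 48.7 (39.5 to 59.9). VLDLR, the gene of a receptor for triglyceride-rich particles, had 15.6 (10.5 to 22.3), NR1H3, which encodes the oxysterol receptor LXR-alpha, 13 (8.42 to 19.2) and SREBF1, a regulator of fatty acid synthesis, 11.7 (7.18 to 17.3). The first 3 of these exceeded the other 3 with no overlap of intervals.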

How the data were processed

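The submitters' processing notes name Bowtie2, HOMER and the build hg38, with versions not given in the sources used here. The peaks are those of HOMER's findPeaks, per the file headers, in factor style, with no named control. It considered at most 1 tag per position, used a false discovery rate of 0.001 and required 4-fold over the 10 kb around a peak and a local Poisson p of 0.0001. The normalised tags do not appear to carry that cap. The highest in the list, 3062.7, corresponds to about 5884 tags in a peak of 349 bp. The Poisson intervals given here treat repeated tags as independent. The deposited tag signal is scaled to 10000000 tags. The deposited focus ratio is a fraction, the deposited score is the caller's own, and the deposited fold and clonal fold are ratios. The deposited local p-value was not used for a test.

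Here peaks were placed by their centres and set against genes of a RefSeq table of GRCh38.p14, on the chromosomes shared with hg38. Its exons and untranslated regions were not used here. The promoter motifs searched were the CTCF core and CCCTC, on both strands. The 9 genes and the pathway list were chosen with earlier results of these data known. Genes were named by rule: the 9 genes, genes holding a window peak or ending within 1 kb of one, the gene nearest each outside peak, and the 6 pathway genes with the highest-scoring end peak. APOA1-AS is also named, for its position. The scripts' distance and motif counts were tested on simulated data. Alternatives varied the flank, the end window, the peak threshold, peak merging, the gene set and the motif. Software was Python 3.11.15 with numpy 2.4.6, pandas 2.3.3 and scipy 1.17.1, and figures were drawn with matplotlib 3.10.9.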

Additional observations from a re-analysis of the deposited data

How the results depend on the processing

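No paired analysis was possible because only 1 library was analysed. For the same reason no library could be left out. Of 43 alternatives, 29 stayed within 1.5 times the count, or within the interval of the value, and 14 did not. The 24 window peaks became 15 with a flank of 50 kb, 37 with 200 kb and 15 at or above the median score. In the APOE window the 10 peaks became 6 with 50 kb and 20 with 200 kb. In the APOB window the 5 peaks became 3 with 50 kb and 2 at or above the median score. The 1 gene with a peak within 1 kb became 7 within 5 kb and, with windows chosen after seeing the data, 3 within 2 kb, 5 within 2.5 kb and 8 within 10 kb, where the shares of all protein-coding genes were 53.2%, 37.3%, 40.9% and 67.6%. With a window of 500 bp it was still 1 gene (20.6% of all). The share of 28.4% was 27.5% on chromosomes 2, 11 and 19, and 16.1% over all annotated genes. CCCTC in place of the longer motif was found in promoters of 6 genes, against 0. The 3 genes with a peak inside did not change in number under any of the 3 alternatives run for them. Peaks near 15 counted tags, or 7.81 normalised tags (4.37 to 12.9), are the least certain, with intervals spanning nearly 3-fold. A stretch without a called peak gives only an upper limit.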
